A study of Mus musculus with 15 samples.

Results

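Granins and the enzymes that mature prohormones were followed in single cells of the mouse prefrontal cortex (PFC). The 10 genes were fixed by symbol and each was found once among the 26145 genes of the deposited tables: Chga, Chgb, Scg2, Scg3, Scg5, Vgf, Pcsk1, Pcsk2, Pcsk1n and Cpe. All mice were male C57BL/6N. Adult mice (8 to 10 weeks in the labels, P60 in the study) self-administered cocaine or saline through a jugular catheter after training with food, and were taken at the end of the maintenance phase, after 48 h of withdrawal or after 15 days of withdrawal, with 2 libraries for each treatment and period. The paper places the implantation of catheters at P60, with sessions and withdrawal after it. By this account the tissue was taken later than P60, at an age that differs by period. P60 is used below as the study's name for the adult libraries. Another 3 libraries came from mice at P21 (3 weeks). Each adult library was made from the pooled tissue of 2 mice, whereas for P21 the methods give 4 mice for 3 libraries. With tissue of 2 mice in each library, as the methods state for every replicate, 4 mice make 2 replicates, so the P21 libraries may share animals and the spread among them may be partly technical. The tissue field of the labels names the nucleus accumbens, but titles, source names and methods name the PFC. The comparison of P21 with P60 used the 6 saline libraries, whose mice had also undergone surgery, food training and saline sessions, so that age and these procedures cannot be told apart. For the matching of P21 to adult cells, the methods mention a bias from different sequencing technologies and do not describe it further. A technical difference of this kind between the P21 and adult libraries cannot be told apart from age either.

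Peptide hormones and neuropeptides are made as inactive precursors and are cut to their active form inside dense-core vesicles. Chromogranin A (Chga), chromogranin B (Chgb) and secretogranin II (Scg2) are acidic proteins that aggregate in the trans-Golgi network, are packed into these vesicles and give rise to peptides of their own. Secretogranin III (Scg3) binds chromogranin A and the vesicle membrane, and Vgf encodes a precursor induced by neurotrophins. The prohormone convertases PC1 (Pcsk1) and PC2 (Pcsk2) cut precursors at pairs of basic residues, carboxypeptidase E (Cpe) trims the basic residues left behind, Scg5 encodes a chaperone that PC2 needs for its activity, and Pcsk1n encodes proSAAS, an inhibitor of PC1. In the cortex these proteins serve interneurons that release peptides as well as excitatory neurons, and many of the genes are known to respond to neuronal activity through cyclic AMP.

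Because cyclic AMP acts on promoters through the element TGACGTCA (CRE, a palindrome that also holds the shorter site TGACG), promoters were searched for these letters on both strands. The table of RefSeq promoters (GRCm38.p6, 250 bases before to 50 after each start) held 8 of the 10 genes, all but Vgf and Cpe. The full element was found in 3 of these 8, against 549 of 27025 genes of the table (2.03%), and the 3 promoters are shown with the element in capitals.
Chgb, chr2:132781392-132781691, plus strand: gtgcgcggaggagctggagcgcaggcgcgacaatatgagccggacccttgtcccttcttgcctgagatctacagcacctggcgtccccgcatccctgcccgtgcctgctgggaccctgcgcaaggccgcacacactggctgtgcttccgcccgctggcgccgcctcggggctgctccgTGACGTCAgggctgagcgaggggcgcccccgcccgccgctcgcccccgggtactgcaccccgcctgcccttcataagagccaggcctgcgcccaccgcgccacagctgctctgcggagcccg
Scg2, chr1:79439977-79440276, minus strand: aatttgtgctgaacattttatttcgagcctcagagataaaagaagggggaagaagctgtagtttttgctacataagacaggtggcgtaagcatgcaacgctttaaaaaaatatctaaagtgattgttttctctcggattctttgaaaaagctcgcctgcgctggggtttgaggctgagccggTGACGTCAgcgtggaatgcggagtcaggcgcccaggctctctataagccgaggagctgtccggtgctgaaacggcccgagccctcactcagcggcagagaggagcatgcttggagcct
Pcsk1, chr13:75089607-75089906, plus strand: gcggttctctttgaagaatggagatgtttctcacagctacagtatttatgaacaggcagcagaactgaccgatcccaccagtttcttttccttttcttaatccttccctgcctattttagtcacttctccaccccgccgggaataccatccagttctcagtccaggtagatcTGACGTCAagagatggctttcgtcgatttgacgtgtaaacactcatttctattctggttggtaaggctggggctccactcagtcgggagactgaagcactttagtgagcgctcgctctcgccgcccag
The first base of the element lay 72 bases before the annotated start in Chgb, 68 before it in Scg2 and 78 before it in Pcsk1. The shorter site was present in 7 of the 8 genes, all but Pcsk1n, against 23.0% of all genes. Other letters were less frequent. The TATA motif TATAAA was found in Chga (15.7% of all genes), with its first base 5 bases after the annotated start and not before it. The AP-1 motif TGACTCA was found in Pcsk1n (5.95% of all genes), and the left part of the REST motif, TTCAGCACC, in Scg2 (0.433% of all genes). The E box CACGTG (8.09%) and the right part of the REST motif, GGACAGCG (1.48%), were found in none of the 8. These matches describe the letters of the windows and were not tied to any measurement of binding.

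In the annotation of NCBIM37, the build the authors used, the genes lie on separate chromosomes except for Chgb (chromosome 2, 132607014 to 132620815, plus strand), Pcsk2 (chromosome 2, 143371892 to 143642021, plus strand) and Scg5 (chromosome 2, 113616519 to 113669278, minus strand). No member overlapped another gene on its own strand, and none shared a stretch of 31 bases near its transcript end with the protein-coding transcripts of another gene. On the opposite strand, C630020P19Rik and Gm12360 lay over Pcsk2 and Eras over Pcsk1n.

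Values are raw counts of unique molecular identifiers (UMIs), summed over the cells of a class or cluster in each library and divided by their total to give CPM values, in which the retained UMIs of each class or cluster in a library are scaled to the same sum. The 15 libraries held between 8375172 and 42892922 UMIs in retained cells, and no pair of libraries shared more than 27 cell barcodes. In the saline libraries the defining markers of each class summed highest, on average, in that class. The neuron markers Snap25, Syt1, Stmn2 and Snhg11 summed to 9980 to 11705 CPM in excitatory neurons there, and the inhibitory markers Gad1, Gad2 and Slc32a1 to 0.362 to 4.46 CPM. Markers of other classes were present too. Neuron markers summed to 142 to 4193 CPM in astrocytes of these libraries. At P21, oligodendrocyte markers summed to 235 to 2162 CPM in microglia, beside 4888 to 11891 CPM for microglia markers. In the P21 library with enough oligodendrocyte precursors, endothelial markers summed to 557 CPM beside 878 CPM for precursor markers. Saline library 3 of the maintenance phase had fewer than 10 astrocytes, oligodendrocyte precursors and newly formed oligodendrocytes, which leaves 11 adult libraries for these classes. The clusters were made by the authors from the expression of all genes in the same cells, so levels across classes and clusters are described without a test. Levels are compared between cells for 1 gene at a time, since UMI counts of different genes do not share a scale.

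Together the 10 genes held 0.314% ± 0.0143 (SD, n = 12) of the UMIs of excitatory neurons at P60, 0.285% ± 0.0170 (n = 12) in inhibitory neurons, 0.236% ± 0.0218 (n = 11) in astrocytes and 0.166% ± 0.0286 (n = 11) in oligodendrocyte precursors. In endothelial cells the share was 0.0217% ± 0.01205 (n = 12). The genes differed in where they were highest, as the heat map of levels shows.

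**Figure D1:**
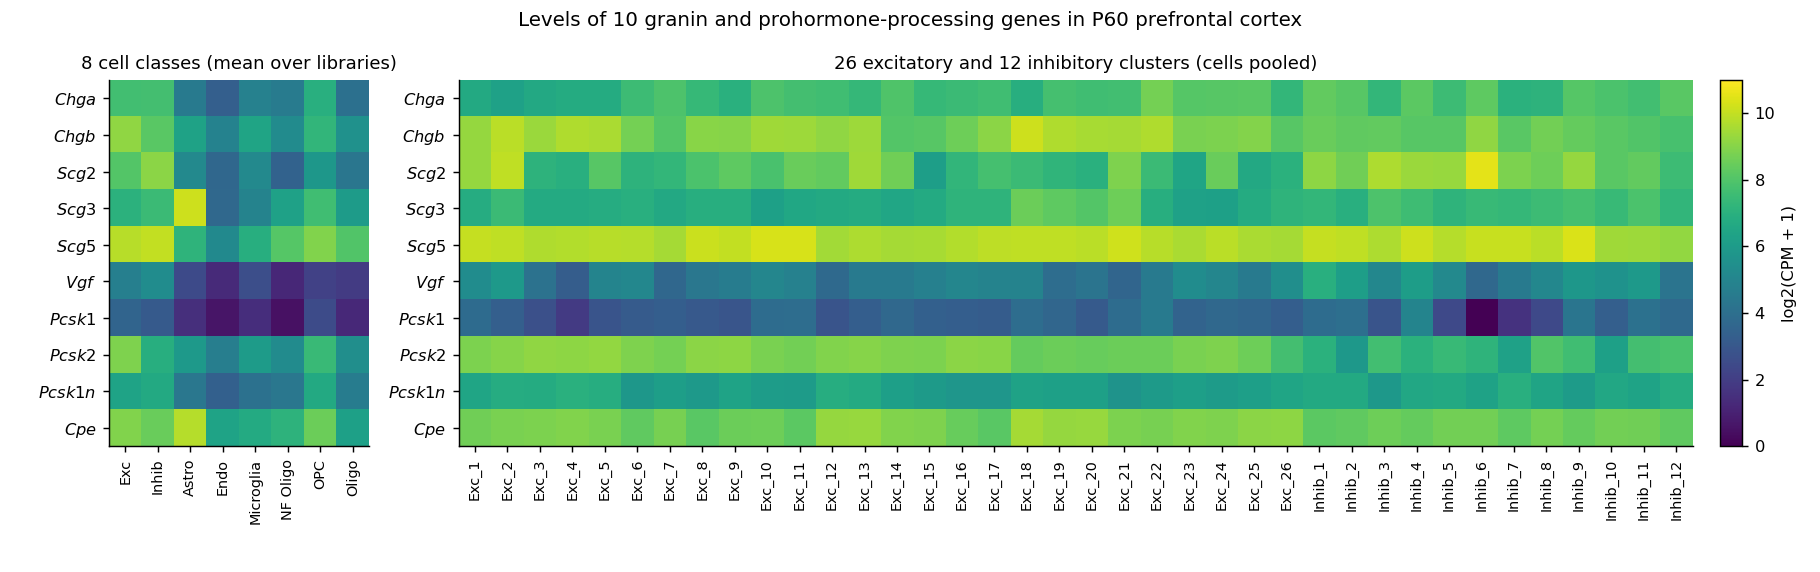
Levels of the 10 genes at P60, as log2(CPM + 1), with genes in rows and cells in columns. On the left each column is 1 of 8 classes (mean over 11 or 12 libraries) and on the right 1 of 26 excitatory or 12 inhibitory clusters (cells pooled). Scg3 and Cpe are highest in astrocytes (1132 and 869 CPM), whereas Pcsk2 is highest in excitatory neurons (475 CPM).

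Among the granins, Chgb and Scg2 were divided between the neuron classes in opposite ways. Chgb was at 570 ± 52.4 CPM (SD, n = 12) in excitatory and 294 ± 41.2 CPM (n = 12) in inhibitory neurons, and was higher in excitatory neurons in 12 of 12 libraries. Scg2 was at 263 ± 36.9 CPM (n = 12) in excitatory and 543 ± 133 CPM (n = 12) in inhibitory neurons, and was higher in inhibitory neurons in 12 of 12 libraries. Chga did not separate the neuron classes, with 200 ± 24.9 CPM (n = 12) in excitatory and 208 ± 33.0 CPM (n = 12) in inhibitory neurons, the latter higher in 7 of 12 libraries. It was also present in oligodendrocyte precursors at 123 ± 42.0 CPM (n = 11). Vgf was at 26.3 ± 3.99 CPM (n = 12) in excitatory and 39.3 ± 9.44 CPM (n = 12) in inhibitory neurons, higher in inhibitory neurons in 10 of 12 libraries, and did not exceed a mean of 5.30 CPM in any other class. Scg3 followed another order. It was at 1132 ± 144 CPM (n = 11) in astrocytes, above the next class in 11 of 11 libraries, then at 196 ± 30.2 CPM (n = 11) in oligodendrocyte precursors, 179 ± 24.4 CPM (n = 12) in inhibitory and 132 ± 13.4 CPM (n = 12) in excitatory neurons. Oligodendrocyte precursors and inhibitory neurons did not differ beyond their spread for Scg3, the former being higher in 5 of 11 libraries.

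The convertases and their partners were not distributed alike either. Pcsk2 was at 475 ± 46.6 CPM (SD, n = 12) in excitatory neurons, 176 ± 43.2 CPM (n = 11) in oligodendrocyte precursors and 117 ± 33.4 CPM (n = 12) in inhibitory neurons, and the precursors lay above inhibitory neurons in 11 of 11 libraries. Scg5, whose product is the chaperone of PC2, did not share this gap between neuron classes: it was at 1002 ± 80.0 CPM (n = 12) in inhibitory and 904 ± 61.8 CPM (n = 12) in excitatory neurons, higher in inhibitory neurons in 11 of 12 libraries. Scg5 was also found along the oligodendrocyte lineage, at 483 ± 89.7 CPM (n = 11) in precursors, 271 ± 66.5 CPM (n = 11) in newly formed and 255 ± 44.8 CPM (n = 12) in mature oligodendrocytes. Pcsk1 was sparse, with 10.7 ± 2.72 CPM (n = 12) in excitatory and 7.62 ± 3.95 CPM (n = 12) in inhibitory neurons, which did not differ beyond their spread. Its inhibitor gene Pcsk1n was at 101 ± 21.8 CPM (n = 12) in inhibitory neurons, 100.2 ± 26.9 CPM (n = 11) in oligodendrocyte precursors and 81.2 ± 12.9 CPM (n = 12) in excitatory neurons, and neighbours in this order did not differ beyond their spread. Cpe was at 869 ± 108 CPM (n = 11) in astrocytes, above excitatory neurons (478 ± 51.5 CPM, n = 12) in 11 of 11 libraries. It was at 365 ± 70.6 CPM (n = 11) in oligodendrocyte precursors and 355 ± 35.1 CPM (n = 12) in inhibitory neurons, which did not differ beyond their spread.

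Droplets of any class can carry free RNA from neurons, so levels outside neurons were set beside 7 genes that mark neurons (Snap25, Syt1, Stmn2 and Snhg11) or excitatory neurons (Slc17a7, Nrgn and Nrn1). In astrocytes these 7 genes were at 10.7% to 17.5% of their level in excitatory neurons. Scg3 was at 859% and Cpe at 182% of its excitatory level there, above that range, whereas Chga, Chgb, Scg2, Scg5, Vgf, Pcsk1 and Pcsk2 were at 10.6% to 17.5%, Pcsk1n at 24.2%. In oligodendrocyte precursors the 7 genes were at 8.63% to 27.8%, and 7 members were above that range: Scg3 (149%), Pcsk1n (124%), Cpe (76.3%), Chga (61.8%), Scg5 (53.5%), Pcsk1 (44.1%) and Pcsk2 (37.2%). In mature oligodendrocytes, with 3.59% to 9.38% for the 7 genes, Scg3 (48.6%), Pcsk1n (29.4%), Scg5 (28.2%) and Cpe (15.6%) lay above, and Pcsk1 (13.5%) and Vgf (10.6%) just above. In newly formed oligodendrocytes the 7 genes were at 2.82% to 6.64%, with Scg3 (59.3%), Scg5 (30.01%), Cpe (29.0%), Pcsk1n (23.8%), Chga (11.5%) and Pcsk2 (8.12%) above and Chgb (6.68%) just above. In endothelial cells (2.99% to 12.2%) Cpe alone was above the range, at 17.5%. Microglia, which should lack the neuron-specific members, had the 7 genes at 9.25% to 17.2% and Scg3, Cpe, Vgf and Pcsk1n at 22.1%, 22.1%, 20.2% and 20.02%.

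The share of cells with at least 1 UMI was compared after each cell had been thinned to 2000 UMIs, since the median cell held 12456 UMIs in excitatory neurons, 7192 in inhibitory neurons and 2456 in microglia. Scg5 was then seen in 81.3% of 14443 excitatory neurons (99.2% without thinning), in 84.8% of inhibitory neurons, in 58.4% of oligodendrocyte precursors and in 6.86% of microglia. Scg3 was seen in 88.4% of astrocytes (95.9% without thinning), 34.3% of oligodendrocyte precursors and 23.7% of excitatory neurons, against 3.47% of microglia. Cpe was seen in 74.0% of astrocytes (86.4% without thinning), 58.0% of excitatory neurons and 10.1% of microglia. The split of the convertase was as plain by cell as by level, with Pcsk2 in 60.3% of excitatory, 20.2% of inhibitory neurons and 5.13% of microglia. Chgb was seen in 63.4% of excitatory and 45.8% of inhibitory neurons, and Scg2 in 33.1% and 55.3%, against 5.51% and 2.41% of microglia. The shares depend on the depth chosen. With cells thinned to 1000 UMIs, 40 of 80 shares moved beyond their SD over libraries. Scg3 was then in 67.1% of astrocytes and 12.9% of excitatory neurons, and Pcsk2 in 37.2% of excitatory and 10.8% of inhibitory neurons.

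Within the neuron classes the leading cluster differed between most genes, among the 29 clusters that were ranked. Exc_22 led for both Chga and Pcsk1, and Exc_18 for both Chgb and Cpe. Scg2 was highest in Exc_2, a cluster with the upper-layer markers Cux2 (157 CPM, pooled over cells) and Calb1 (262 CPM): its level of 995 ± 111 CPM (SD, n = 12) lay above that of the next cluster, Exc_13 (680 ± 140 CPM, n = 12), in each of the 12 libraries. Exc_1 followed (659 ± 289 CPM, n = 11), and the lowest were Exc_23 (83.2 ± 41.2 CPM, n = 12) and Exc_15 (75.3 ± 37.3 CPM, n = 8). Chga was highest in Exc_22 (411 ± 62.5 CPM, n = 9), a cluster with Etv1 (186 CPM) and Rorb (93.5 CPM), above Inhib_2 (294 ± 42.8 CPM, n = 6) in 6 of 6 libraries and above Exc_25 (287 ± 45.5 CPM, n = 12), and lowest in Exc_3 (95.0 ± 17.4 CPM, n = 12) and Exc_2 (79.2 ± 17.8 CPM, n = 12). Chgb was highest in Exc_18 (1118 ± 186 CPM, n = 7), Exc_2 (940 ± 97.0 CPM, n = 12) and Exc_19 (812 ± 137 CPM, n = 12), and lowest in Exc_14 (255 ± 31.6 CPM, n = 12) and Exc_7 (245 ± 49.9 CPM, n = 9).

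Scg3 was highest in clusters with markers of deep layers, and 1 of these, Exc_18, also led for Cpe. It was at 387 ± 36.7 CPM (n = 12) in Exc_21, the cluster with Tshz2 (2066 CPM) and Etv1 (696 CPM), at 348 ± 75.8 CPM (n = 7) in Exc_18 and at 297 ± 48.4 CPM (n = 12) in Exc_19, both with Foxp2 (121 and 150.0 CPM) and Syt6 (75.5 and 92.5 CPM). Exc_10 (78.1 ± 13.2 CPM, n = 12) and Exc_24 (74.0 ± 11.4 CPM, n = 11) were the lowest for Scg3. Cpe was highest in Exc_18 (772 ± 235 CPM, n = 7), Exc_13 (669 ± 129 CPM, n = 12) and Exc_20 (644 ± 107 CPM, n = 8), neighbours that did not differ beyond their spread, and lowest in Exc_8 (305 ± 57.0 CPM, n = 11) and Exc_17 (287 ± 42.1 CPM, n = 9). Scg5 varied least, from 1305 ± 267 CPM (n = 6) in the Vip cluster Inhib_9, 1293 ± 102 CPM (n = 11) in Exc_11 and 1234 ± 106 CPM (n = 12) in Exc_10 to 723 ± 57.7 CPM (n = 12) in Exc_12 and 719 ± 80.7 CPM (n = 12) in Exc_14.

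Pcsk1 shared its leader with Chga, whereas Pcsk2, Vgf and Pcsk1n had leaders of their own. Pcsk2 differed little among its top clusters, Exc_5 (581 ± 57.5 CPM, n = 12), Exc_9 (580 ± 67.3 CPM, n = 12) and Exc_3 (576 ± 78.0 CPM, n = 12), and was lowest in Inhib_7 (76.5 ± 22.4 CPM, n = 9) and in the Sst cluster Inhib_2 (52.2 ± 27.3 CPM, n = 6). Pcsk1 was highest in Exc_22 (22.7 ± 5.35 CPM, n = 9), Inhib_9 (20.3 ± 14.7 CPM, n = 6) and Exc_11 (16.3 ± 15.9 CPM, n = 11), which did not differ beyond their spread, and lowest in Exc_4 (2.68 ± 2.77 CPM, n = 12) and Inhib_7 (1.59 ± 2.15 CPM, n = 9). Inhib_2, the lowest for Pcsk2, was the highest for Vgf at 68.0 ± 19.0 CPM (n = 6), followed by Exc_2 (61.9 ± 18.6 CPM, n = 12) and Inhib_9 (61.5 ± 26.1 CPM, n = 6), while Exc_21 (9.63 ± 6.54 CPM, n = 12) and Exc_4 (8.85 ± 4.44 CPM, n = 12) were the lowest. Pcsk1n was highest in Exc_4 (129 ± 25.9 CPM, n = 12), Exc_5 (121 ± 26.4 CPM, n = 12) and Inhib_7 (119.6 ± 28.2 CPM, n = 9) and lowest in Exc_6 (50.4 ± 12.4 CPM, n = 10) and Exc_21 (48.5 ± 13.7 CPM, n = 12). The cluster Exc_4 thus stood at the top for this inhibitor gene and near the bottom for Pcsk1.

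Likeness was measured as Pearson's r of log2(CPM + 1) over 33 neuron clusters with at least 50 cells, among 6109 genes. These r are descriptions across clusters that share libraries and depth. The clusters are both excitatory and inhibitory, so a gap between the neuron classes enters r. For the genes outside the members, r was not computed over excitatory clusters alone. Pcsk2 had the closest companions, Kcnv1 (r = 0.94), Arpp21 (0.93) and Lmo4 (0.93). For Chga the most alike were Lgmn (0.84), Reep5 (0.81) and Oxr1 (0.80), for Cpe Arl8a (0.83) and B3galt2 (0.81), and for Chgb Nptx1 (0.81), Ano3 (0.81) and Rtn4 (0.80). Scg2 was most like Penk (0.78), the proenkephalin gene, Cstb (0.73) and Fxc1 (0.71). Scg3 was most like Park7 (0.78), Suclg1 (0.78) and Tle4 (0.75), Pcsk1n like Nop10 (0.76), Tom1l2 (0.75) and Mon2 (0.75), Pcsk1 like Dscam (0.76), Tceal6 (0.61) and Slc48a1 (0.61), Scg5 like Tipin (0.75), Ahsa1 (0.73) and Snrpc (0.72), and Vgf like Nrxn3 (0.70), 6330512M04Rik (0.69) and Gng3 (0.68). Among the members themselves the highest r were 0.58 for Chga and Pcsk1 and 0.54 for Chgb and Pcsk2, and the lowest -0.49 for Vgf and Pcsk2 and -0.46 for Scg5 and Cpe. Over the 26 excitatory clusters alone, Chga and Pcsk1 were at 0.54 and Scg5 and Cpe at -0.43, but Chgb and Pcsk2 were at 0.11 and Vgf and Pcsk2 at -0.10. The highest r was then 0.57, for Chgb and Scg5, and the lowest -0.61, for Chga and Pcsk1n.

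From P21 to P60, the genes of the pathway moved in different directions in excitatory neurons. Genes were called at an adjusted p below 0.05 in edgeR's quasi-likelihood test and a change above 1.5-fold, and 19.3% of the 13245 genes tested in excitatory neurons were called in either direction. Of the 10 members 1 was called, Pcsk1, and 4 others passed the adjusted p with a smaller change. The share of all genes that passed the adjusted p alone was not counted for the neuron classes, so these 4 have no share beside them. The median change of the members was 0.29 on the log2 scale, beside a median of -0.00 over all genes tested. The depth of these cells also differed, with a median of 9233 UMIs per excitatory neuron at P21 and 13676 in the saline P60 libraries, and Snap25 was at 2943 to 3134 CPM at P21 and at 3844 to 5241 CPM at P60. Markers of other cell types moved with age in these cells as well: the 3 oligodendrocyte markers summed to 94.6 to 329 CPM at P21 and to 8.22 to 41.4 CPM at P60, the 2 endothelial markers to 16.2 to 50.7 and 1.79 to 7.89 CPM, and the 3 astrocyte markers to 33.96 to 77.5 and 60.9 to 133 CPM, with none at 0. The clusters also took other shares of the class, with Exc_20 at 495 of 5934 cells at P21 and 94 of 6707 in the saline libraries, and Exc_10 at 93 and 455. The part of these differences in the results was not tested.

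Classes were taken from the deposited cluster of each cell. The deposited cell type differed from it in 256 of 4439, 96 of 2791 and 107 of 3308 cells of the P21 libraries, against 0 to 11 cells in an adult library. With only the cells whose labels matched, the members called by age were Pcsk1 in excitatory neurons, Pcsk2 in inhibitory neurons, Cpe in astrocytes and endothelial cells, and Scg5 and Scg3 in mature oligodendrocytes, where Scg3 (0.68, adjusted p = 0.041) was called in place of Pcsk2 (1.15, adjusted p = 0.053). The tests within clusters used all cells.

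Pcsk1, the gene of PC1, rose. Its levels were 7.40, 7.48 and 6.09 CPM in the 3 P21 libraries, and in the 6 saline P60 libraries the lowest was 8.75, the median 10.6 and the highest 16.003 CPM. Every P60 library lay above every P21 library, and the change was 0.78 ± 0.22 (log2, SE; adjusted p = 0.013). The call was lost without P21 library 3 (0.70, adjusted p = 0.056). Libraries of the ages did not overlap for 35% of all genes tested in excitatory neurons. Scg5 had the next largest change, from 597, 723 and 686 CPM at P21 to a lowest of 857, a median of 925 and a highest of 1037 CPM at P60. Here too the ages did not overlap, with a change of 0.56 ± 0.10 (adjusted p = 0.00071) that stayed just under the 1.5-fold limit. Pcsk2 went the same way, from 404, 387 and 385 CPM to 453, 485 and 523 CPM (lowest, median and highest), again without overlap (0.38 ± 0.08, adjusted p = 0.0029).

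Cpe moved opposite to the convertases. It was at 630, 653 and 668 CPM at P21 and at 435, 464 and 508 CPM (lowest, median and highest) at P60, with no overlap and a change of -0.41 ± 0.08 (adjusted p = 0.0013) that was below the fold limit. Chga passed the adjusted p with 0.31 ± 0.10 (adjusted p = 0.022), although its libraries overlapped (163 to 176 CPM at P21 and 170 to 236 CPM at P60). The other members did not pass: Scg2 had a change of 0.27 (adjusted p = 0.095), Chgb 0.13 (0.26), Vgf 0.15 (0.64), Pcsk1n 0.46 (0.35) and Scg3 -0.02 (0.90).

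**Figure D2:**
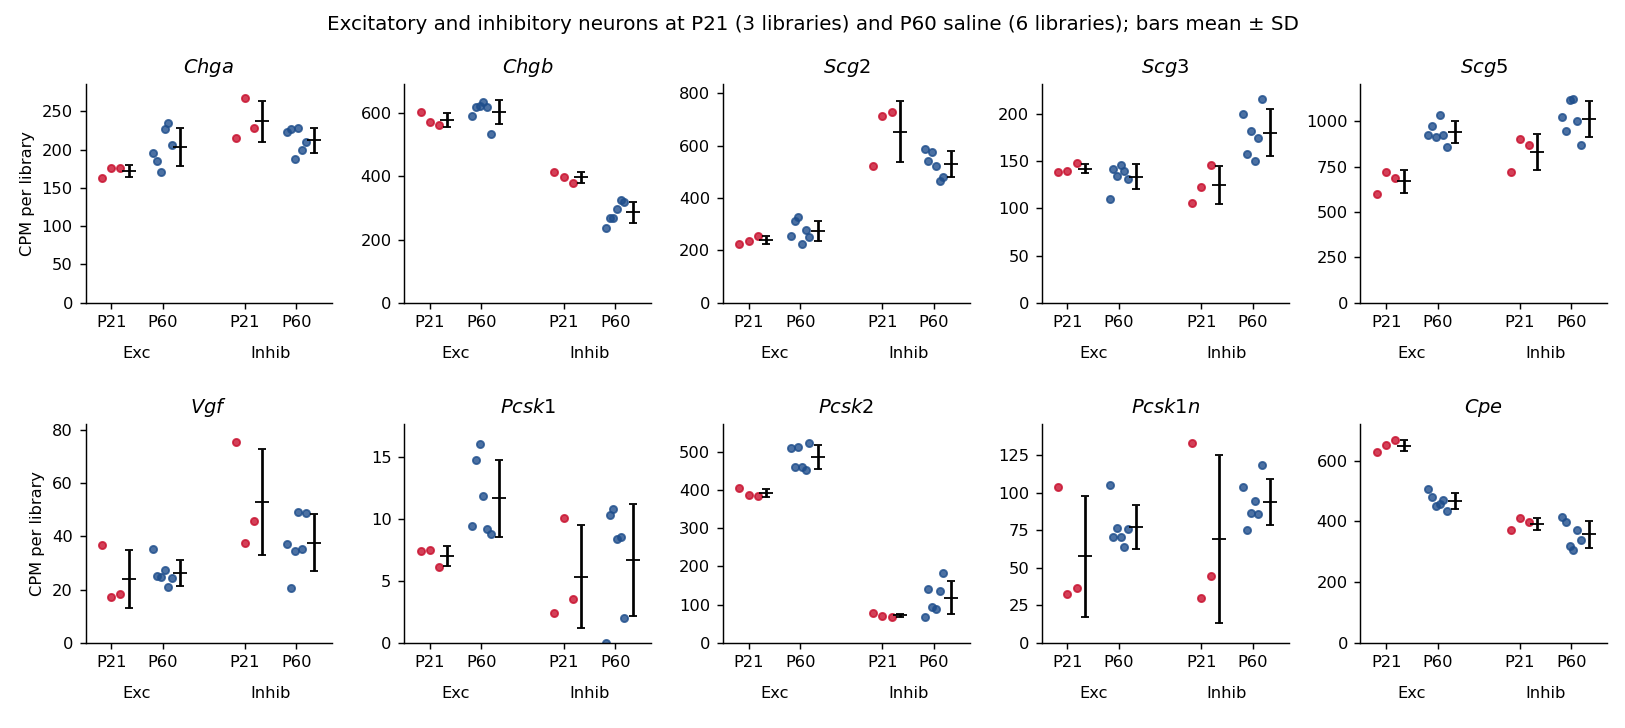
CPM of each gene in excitatory (Exc) and inhibitory (Inhib) neurons, with 1 point per library for 3 P21 libraries (red) and 6 saline P60 libraries (blue) and bars at the mean ± SD. In excitatory neurons the ages do not overlap for Scg5 (597 to 723 against 857 to 1037 CPM) or Cpe (630 to 668 against 435 to 508 CPM), and 1 P21 library stands apart for Pcsk1n (104 CPM against 32.7 and 36.3 CPM).

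One P21 library decided the result for Pcsk1n and Vgf. In excitatory neurons Pcsk1n was at 104 CPM in P21 library 1 and at 32.7 and 36.3 CPM in the others, and in inhibitory neurons at 133 CPM against 29.6 and 44.3 CPM. Vgf in excitatory neurons was at 36.7 CPM in that library and at 17.2 and 18.3 CPM in the others. Without it, Pcsk1n was called higher at P60 in excitatory neurons (1.21 ± 0.16, adjusted p = 8.2e-05) and in inhibitory neurons (1.34 ± 0.19, adjusted p = 3.9e-05), and Vgf in excitatory neurons (0.60 ± 0.16, adjusted p = 0.0076).

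The inhibitory class was made of different clusters at each age. Inhib_2 held 341 of 962 inhibitory neurons at P21 and 44 of 563 in the saline P60 libraries, and Inhib_6 held 162 and 22. Inhib_7 went the other way, with 76 and 201, and for all 3 the shares of single libraries did not overlap between ages. Changes in the class therefore cannot be told apart from this shift, and Inhib_2 is the lowest ranked cluster for Pcsk2 and the second highest for Chga.

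In inhibitory neurons, where 14% of 8898 genes were called, Pcsk2 was the 1 member called. It was at 76.9, 70.4 and 68.0 CPM at P21 and at 66.8, 114 and 184 CPM (lowest, median and highest) at P60, a change of 0.78 ± 0.21 (adjusted p = 0.015) with 1 P60 library below the P21 range. The call was lost without P21 library 2 or 3 (adjusted p up to 0.069). The excitatory markers Slc17a7, Nrgn and Nrn1 summed to 68.1 to 212 CPM in inhibitory neurons at P21. In the saline P60 libraries they summed to 14.8 to 336 CPM, and their part in the change of Pcsk2 was not tested. Within Inhib_2, Inhib_7 and Inhib_9, the clusters with enough cells, Pcsk2 had changes of -0.07, 0.38 and 0.29, and none was called. Scg3 passed the adjusted p with 0.51 ± 0.14 (0.018), from 106 to 147 CPM at P21 to 150.1 to 216 CPM at P60. Chgb fell by 0.45 on the log2 scale (SE 0.11, adjusted p = 0.010), from 380 to 412 CPM to 238 to 324 CPM, and neither of these genes overlapped between ages or passed the fold limit. The share of all genes without overlap was not counted in inhibitory neurons. The other members did not pass: Scg2 had a change of -0.32 (adjusted p = 0.087), Scg5 0.28 (0.12), Vgf -0.44 (0.21), Chga -0.17 (0.34), Cpe -0.16 (0.36), Pcsk1 0.47 (0.57) and Pcsk1n 0.41 (0.59). The difference between the age effects of the neuron classes was tested in limma on the per-library difference of log2 CPM, where 1.39% of 12196 genes passed an adjusted p below 0.05, the threshold used here without a fold limit. The age effect was more positive in excitatory than in inhibitory neurons for 3 members that encode granins, Chgb by 0.65 (adjusted p = 0.042), Scg2 by 0.60 (adjusted p = 0.048) and Chga by 0.50 (adjusted p = 0.049). All 3 adjusted p lay close to the threshold, Chga was below 1.5-fold, and none passed with a prior count of 0.5 or when P21 library 1, 2 or 3 was left out. Scg3, another granin, went the other way (-0.51, adjusted p = 0.23 in limma) and did not pass. The inhibitory side of this contrast holds the shift of clusters given above. Within Inhib_2, Inhib_7 and Inhib_9, the changes were -0.58, -0.08 and -0.57 for Chgb, -0.50, 0.37 and -0.50 for Scg2, and 0.17, 0.41 and 0.07 for Chga, so that Chga was above 0 in each of these clusters and below 0 in the class.

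The same comparison was made within clusters of excitatory neurons. Of 231 tests of members in 26 clusters, 16 were called higher at P60 and 6 lower, beside 4.54% and 6.73% of all tests in these clusters called higher and lower. By the adjusted p alone, 39 were higher and 12 lower, beside 6.67% and 8.17% of all tests. The clusters share libraries and are not replicates of each other.

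Scg5 was higher at P60 in 26 of 26 excitatory clusters, with a median change of 0.53 (0.14 to 0.79). It was called in 9 of them (Exc_6, Exc_12, Exc_14, Exc_17, Exc_19, Exc_20, Exc_22, Exc_24 and Exc_25), passed the adjusted p in 19, and its libraries did not overlap between ages in 20. Over all genes, 18.9% of the tests in these clusters had libraries that did not overlap. Without P21 library 1, Scg5 was called in 5 clusters. The largest change was in Exc_25, from 481, 485 and 497 CPM at P21 to 570, 808 and 874 CPM (lowest, median and highest) at P60 (0.79 ± 0.15, adjusted p = 0.00030). Cpe was lower in 25 of 26 clusters, with a median of -0.32 (-0.77 to 0.09), was called in 4 (Exc_1, Exc_17, Exc_22 and Exc_24), passed the adjusted p in 10, and its libraries did not overlap in 16. In Exc_24 it was at 699, 764 and 947 CPM at P21 and at 551, 412, 424, 465 and 417 CPM in the 5 saline libraries with enough cells, a change of -0.77 ± 0.13 (adjusted p = 8.1e-05).

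Among the granins, edgeR called Chga in 0 clusters, Chgb in 2, Scg2 in 2 and Scg3 in 3. Chgb rose in Exc_19, a deep-layer cluster with Foxp2 and Syt6, from 571, 498 and 512 CPM to 710, 888 and 1093 CPM (lowest, median and highest), a change of 0.82 ± 0.13 (adjusted p = 0.00012), and in Exc_5 by 0.67 ± 0.15 (adjusted p = 0.0036). Scg2 rose in Exc_2, its highest cluster among the 29 ranked, from 650.2, 619 and 557 CPM to 788, 1021 and 1128 CPM (0.74 ± 0.13, adjusted p = 0.00016). In Exc_4, another cluster with Cux2 and Calb1, Scg2 fell by 0.75 on the log2 scale (SE 0.17, adjusted p = 0.0049), from 269, 161 and 187 CPM to 93.8, 116 and 152 CPM. In each of these 4 places the libraries of the ages did not overlap. Scg3 was called higher in Exc_3 (0.60), Exc_4 (0.63) and Exc_5 (0.92), where the libraries of the ages overlapped in Exc_4 and Exc_5. These calls were lost in 10 of 16, 8 of 16 and 4 of 15 alternatives, with adjusted p up to 0.13, 0.17 and 0.18. Vgf was called lower in Exc_21 (-1.33), where it was at 23.1 to 31.6 CPM at P21 and at 0 in 2 of 6 saline libraries. By DESeq2, Scg2 was also called higher in Exc_1 (0.79, adjusted p = 0.033).

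Pcsk1 passed the filter on low counts in 3 of the 26 clusters and was called in Exc_22, its highest cluster among the 29 ranked. It was at 8.04, 13.5 and 5.72 CPM at P21 and at 29.9, 27.7, 25.1, 17.1 and 19.9 CPM in the 5 saline libraries with enough cells, without overlap (1.41 ± 0.40, adjusted p = 0.010). It fell under the filter, and so had no test there, when P21 library 1 or saline library 7, 11 or 12 was left out. All 3 clusters tested were higher at P60 (0.59 to 1.41). A gene this low can pass the filter through its higher group alone, so the clusters tested favour a rise. The call in Exc_22, 1 of the 16 called higher, is therefore given as a description. Pcsk2 was higher in 24 of 26 clusters with a median of 0.20 but was called in none, passing the adjusted p in 5, and without P21 library 1 it was called in 4. In the main edgeR fit, Chga and Pcsk1n were called in no excitatory cluster. Pcsk1n was called higher in Exc_2 by DESeq2 (1.06, adjusted p = 0.025). By edgeR it was called in Exc_2, Exc_4 and Exc_13 without the filter, and in Exc_2 and Exc_4 with all 12 adult libraries. Without P21 library 1 Pcsk1n was called higher in 16 of 25 clusters, and the count of members called higher rose from 16 to 35. In 3 inhibitory clusters with enough cells, 0 of 24 tests of members were called by edgeR or by DESeq2 (5 had an unadjusted p below 0.05, beside 15.3% of all tests), beside 1.65% of all tests called there.

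**Figure D3:**
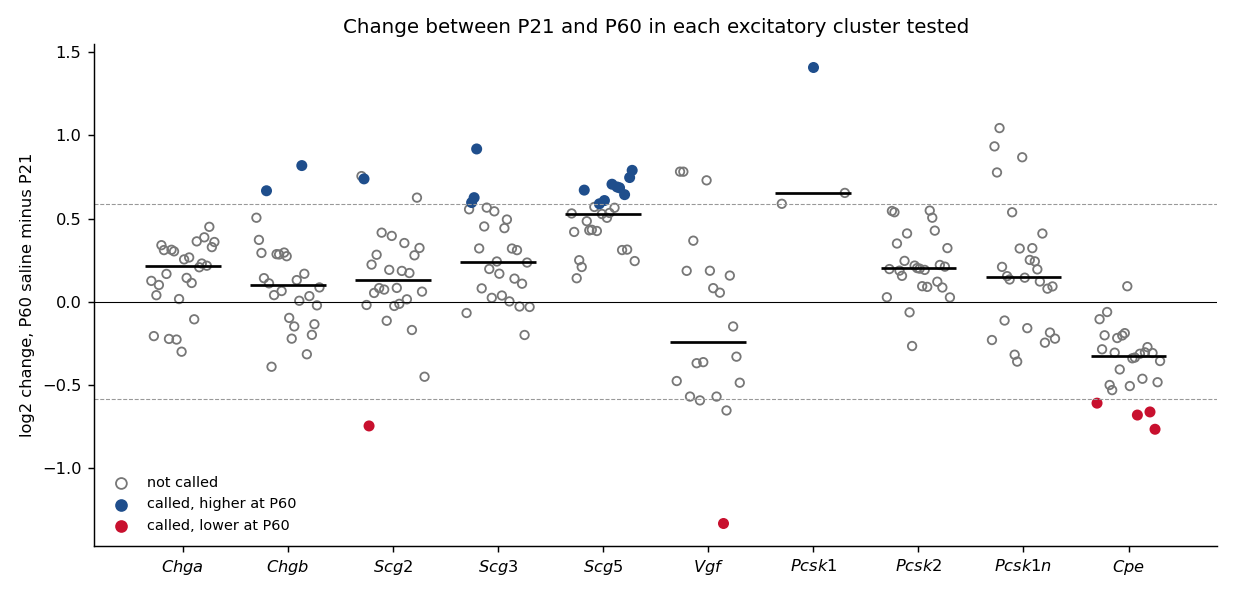
Change from P21 to P60 saline (log2) of each gene in every excitatory cluster tested, 1 point per cluster, with filled points for calls, a black bar at the median and dashed lines at 1.5-fold. Scg5 lies above 0 in 26 of 26 clusters and Cpe below 0 in 25 of 26, while Chgb, Scg2 and Scg3 are called by edgeR in 2, 2 and 3 clusters.

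Outside neurons, 4 tests of members were called. Cpe fell in endothelial cells, where 12.7% of all genes were called, by 1.71 on the log2 scale (SE 0.18, adjusted p = 2.6e-05). It was at 221, 233 and 251 CPM at P21 and at 49.0, 81.8 and 105 CPM (lowest, median and highest) at P60, without overlap. The share of all genes without overlap was not counted for endothelial cells or mature oligodendrocytes. The astrocyte markers Gja1, Aqp4 and Aldoc summed to 204 to 256 CPM in endothelial cells at P21 and to 52.8 to 219 CPM at P60, and none of the 3 was at 0. Their part in the fall of Cpe was not tested. In astrocytes themselves, where 1.11% of genes were called, Cpe was at 1089, 2771 and 3614 CPM at P21 and at 729, 744, 847, 899 and 1110 CPM at P60 (-1.50 ± 0.29, adjusted p = 0.029). The library at 1089 CPM, P21 library 1, held 227 of the 321 P21 astrocytes and lay within the P60 range. The call was lost in 5 of 17 alternatives, each leaving out 1 library (P21 library 2 or 3, or saline library 2, 5 or 11), with adjusted p up to 0.15.

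Scg5 rose in mature oligodendrocytes, where 17.8% of genes were called, from 96.5, 99.6 and 107 CPM at P21 to 204, 261 and 368 CPM (lowest, median and highest) at P60, without overlap (1.29 ± 0.18, adjusted p = 6.5e-05). Pcsk2 was called there too, with overlap (9.96 to 23.3 CPM at P21 and 20.1 to 78.6 CPM at P60, 1.21 ± 0.39, adjusted p = 0.041), a call that was lost in 10 of 17 alternatives (adjusted p up to 0.12). The neuron markers Snap25, Syt1, Stmn2 and Snhg11 summed to 144 to 424 CPM in oligodendrocytes at P21 and to 166 to 1669 CPM at P60, with none at 0, and their part in these results was not tested. Among P60 libraries, Scg5 was lowest in saline library 7 (204 CPM, with Snap25 at 99.3 CPM) and highest in saline library 3 (368 CPM, with Snap25 at 52.5 CPM). At P21 Snap25 was at 42.3 to 112 CPM. These are the libraries at either end and a single marker, and the relation of Scg5 to neuron markers over libraries was not tested. In microglia (0.726% of genes called) and newly formed oligodendrocytes (1.94%) 0 members were called by edgeR, and oligodendrocyte precursors had enough cells in 1 P21 library and were not tested.

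**Figure D4:**
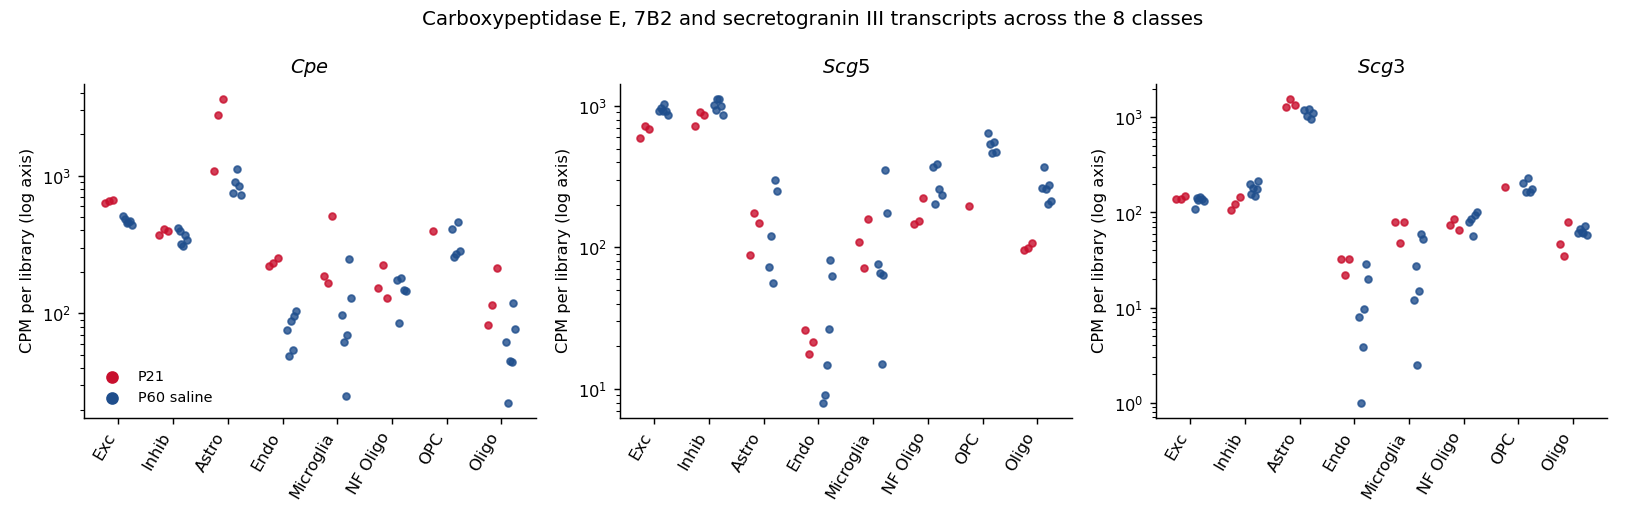
CPM of Cpe, Scg5 and Scg3 (log axis) in each of the 8 classes, 1 point per library for P21 (red) and P60 saline (blue). Cpe in endothelial cells (221 to 251 against 49.0 to 105 CPM) and Scg5 in mature oligodendrocytes (96.5 to 107 against 204 to 368 CPM) separate by age, and Scg3 in astrocytes is at 955 CPM or more in each library plotted. The share of all genes that separate by age was not counted in these classes.

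Other genes of the pathway were taken from fixed lists. Of 11 further processing enzymes tested in excitatory neurons, Pcsk4, a convertase known from germ cells, rose by 2.07 (adjusted p = 9.2e-05) and Pam, which amidates peptides, fell by 1.10 on the log2 scale (adjusted p = 0.0038), with a median of -0.18 over the list. Of 11 genes of dense-core vesicle formation and release, Cadps2, which primes these vesicles, fell by 0.62 on the log2 scale (adjusted p = 0.0061), with a median of -0.13. Of 17 peptide precursors, 0 were called higher and 8 lower, led by Nts (-2.91), Tac1 (-2.28), Vip (-2.10) and Cort (-1.999), with a median of -0.87. Markers of inhibitory neurons moved with this list, since Gad1, Gad2 and Slc32a1 summed to 8.85 to 10.5 CPM in excitatory neurons at P21 and to 0.362 to 4.46 CPM at P60. Their part was not tested. Of 9 genes induced by activity or by dissociation, 5 were lower at P60, led by Ier2 (-2.92), Junb (-2.15), Fos (-1.28) and Dusp1 (-1.18), with a median of -1.02.

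In inhibitory neurons, Qpct, which forms pyroglutamate at peptide ends, rose (1.07, adjusted p = 0.017) and Furin fell by 0.93 on the log2 scale (adjusted p = 0.016) among 7 enzymes tested. Of 14 peptide precursors tested there, 2 were called higher and 3 lower, with the largest changes in Cartpt (-3.07), Bdnf (2.03), Crh (-1.99) and Cort (-1.53). Several of these genes mark subtypes of inhibitory neurons, and the Sst clusters Inhib_1 and Inhib_2 held 98 and 341 of the 962 cells at P21 against 17 and 44 of 563 at P60, so that changes within cells and this shift of subtypes cannot be told apart. The excitatory markers Slc17a7, Nrgn and Nrn1 summed to 68.1 to 212 CPM there at P21 and to 14.8 to 336 CPM at P60. Their part in the rise of Bdnf was not tested. Qpct also rose in mature oligodendrocytes (1.66), and Cpm (1.36) and Cyb561 (0.72) rose in endothelial cells.

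Cocaine was compared with saline within each period, with 2 libraries a group, in a fit of all 12 adult libraries. No member was called in any class tested by edgeR or DESeq2. All 8 classes were tested at 48 h and at 15 days. Astrocytes, oligodendrocyte precursors and newly formed oligodendrocytes had no test at maintenance or for the mean of the periods, which left 5 classes. The tests numbered 43 at maintenance, 64 at 48 h and 64 at 15 days of withdrawal, with 5, 6 and 1 at an unadjusted p below 0.05, beside 4.74%, 4.53% and 5.38% of all tests, and 0.0115%, 0.00827% and 0.339% of all tests in classes were called at these periods. For the mean of the 3 periods, 0 of 43 tests were called (4 at an unadjusted p below 0.05, beside 6.27% of all tests), beside 0.00689% of all tests called, and the smallest adjusted p was that of Chgb in excitatory neurons (-0.17 ± 0.06, adjusted p = 0.45). Differences of the cocaine effect between periods in excitatory neurons gave 0 calls in 30 tests of members with either tool (2 at an unadjusted p below 0.05, beside 4.98% of all tests), beside 0% of all tests called.

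In excitatory neurons, the libraries of the treatments did not overlap for 3 of 10 members at maintenance (Chgb, Cpe and Scg5), 4 at 48 h (Chgb, Cpe, Pcsk1 and Scg5) and 4 at 15 days (Cpe, Pcsk1, Pcsk2 and Scg2), beside 29.4%, 33.3% and 44% of all genes tested. The smallest adjusted p of a member in any class tested was 0.77 at maintenance (Cpe in excitatory neurons, 0.18 ± 0.09), 0.65 at 48 h (Scg5 in endothelial cells, 0.86 ± 0.30) and 0.95 at 15 days (Scg2 in mature oligodendrocytes, 0.91 ± 0.50). After 48 h of withdrawal Chgb was at 463 and 514 CPM in the cocaine libraries and at 622 and 634 CPM in the saline libraries in excitatory neurons, and the change of -0.38 ± 0.10 did not pass edgeR's quasi-likelihood test (adjusted p = 0.77). It was lower with cocaine in 19 of 19 excitatory clusters tested at that period, clusters that share the 4 libraries. Pcsk1 was at 7.85 and 8.86 CPM with cocaine and at 16.003 and 11.8 CPM with saline (-0.72 ± 0.25, adjusted p = 0.98). At 15 days, Chgb was at 522 and 572 CPM with cocaine and at 619 and 533 CPM with saline, overlapping. Pcsk2 was then lower with cocaine in 25 of 26 excitatory clusters, and at 405 and 421 CPM against 453 and 523 CPM in the class (-0.20 ± 0.11, adjusted p = 1.0). Pcsk1n was higher with cocaine in 25 of 26 clusters at 15 days, with 82.1 and 75.5 CPM against 64.1 and 75.8 CPM in the class, which overlapped (0.22 ± 0.14, adjusted p = 1.0). For Pcsk2 and Pcsk1n too the clusters share the 4 libraries of the period, and the share of all genes with such runs of clusters was not counted. The changes of Chga in excitatory neurons were -0.06, -0.04 and -0.05 at maintenance, 48 h and 15 days, those of Scg3 -0.09, -0.04 and -0.02, and those of Vgf -0.01, -0.17 and 0.21, with adjusted p of 0.936 or more.

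**Figure D5:**
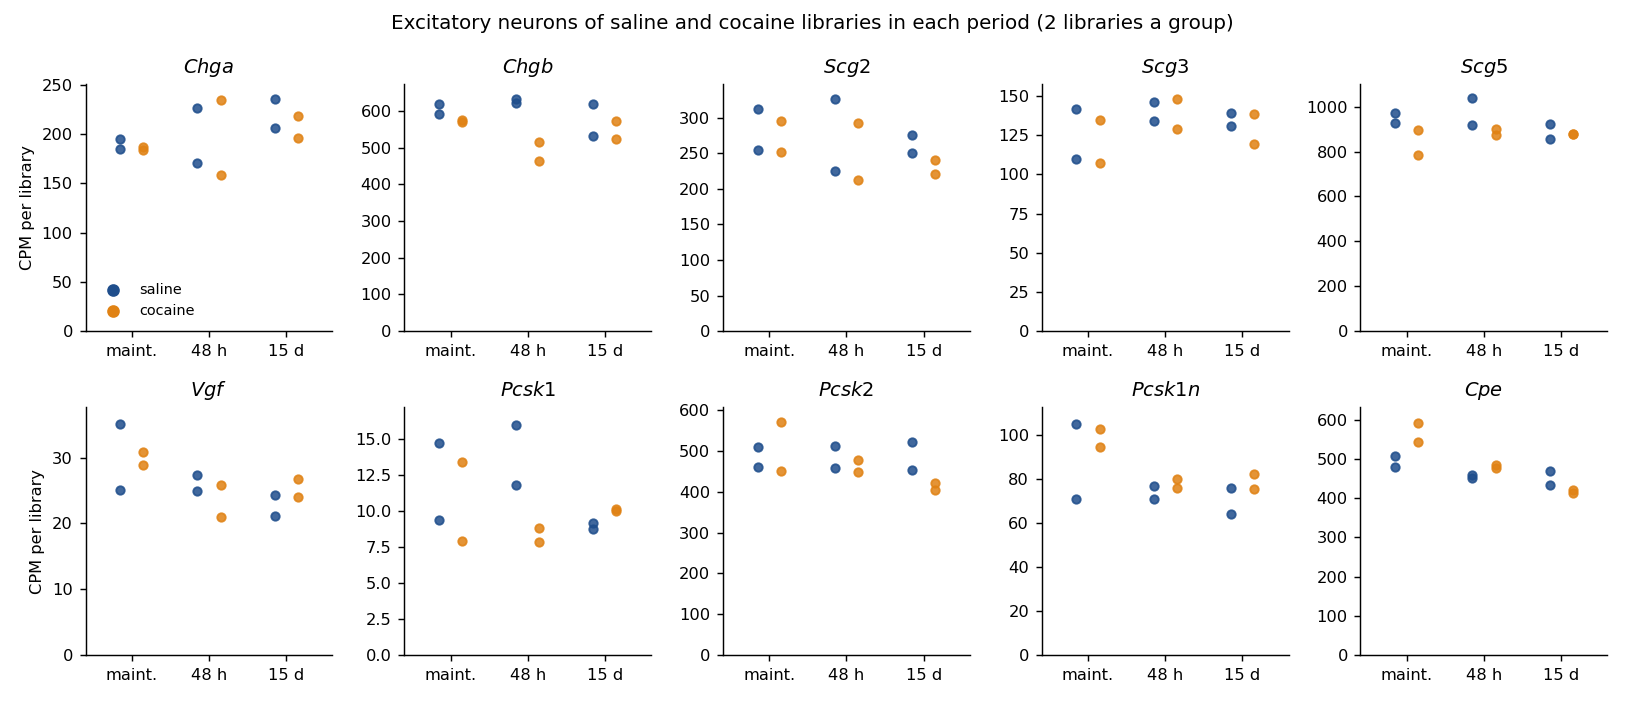
CPM of each gene in excitatory neurons of saline (blue) and cocaine (orange) libraries at maintenance, 48 h and 15 d of withdrawal, 2 points per group. The points do not overlap for 3, 4 and 4 of the 10 genes at the 3 periods, among them Chgb at 48 h with 463 and 514 CPM against 622 and 634 CPM.

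In neuron clusters, 137, 183 and 263 tests of members were made at maintenance, 48 h and 15 days, of which 0, 1 and 1 were called by edgeR and 0, 0 and 0 by DESeq2, with 12, 17 and 22 at an unadjusted p below 0.05, beside 5.55%, 4.95% and 6.82% of all tests. The tests covered 15 excitatory and 0 inhibitory clusters at maintenance, 19 and 1 at 48 h, and 26 and 3 at 15 days. Over all genes, 0.00647%, 0.00554% and 1.22% of the tests in clusters were called. The call at 48 h was Chgb in Exc_21, the Tshz2 cluster, at 438 and 690 CPM with cocaine and 919 and 1052 CPM with saline (-0.80 ± 0.16, adjusted p = 0.030). In this cluster the saline libraries of 15 days were at 736 and 556 CPM. This call was lost in 4 of 19 alternatives (adjusted p up to 0.95). The call at 15 days was Scg2 in Exc_16, at 121 and 119 CPM with cocaine and 178 and 212 CPM with saline (-0.65 ± 0.17, adjusted p = 0.042), and was lost in 7 of 19 alternatives (adjusted p up to 0.53). Among the fixed lists, no gene was called in excitatory neurons at any period. By edgeR, Crh, the precursor of corticotropin-releasing hormone, was higher in inhibitory neurons at 15 days (1.71, adjusted p = 0.0077). Cck was higher in mature oligodendrocytes at 15 days (2.17, adjusted p = 1.8e-07). Over all genes, 0.339% of the tests in classes were called at this period. The 4 neuron markers summed to 130 to 1669 CPM in mature oligodendrocytes of the adult libraries, and their part in the Cck result was not tested. Shares of inhibitory clusters were not compared between treatments, and neither call was followed under the alternatives.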

How the data were processed

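Single-cell RNA-seq of the mouse PFC was read from the UMI counts the authors deposited for each cell and gene, made with Cell Ranger, whose version differs between labels and methods, and Seurat 2.1.0 per the labels, with cell types taken from their annotation, after cells with unusually many genes had been removed by them as likely doublets (no doublet caller was run here); a deposited fraction of mitochondrial reads per cell was not used in any test. Before summing, 13 genes of the mitochondrial genome and 143 for ribosomal proteins were dropped. Counts were summed per library and class or cluster (at least 10 cells) and tested in edgeR 4.0.16 (quasi-likelihood F-test, TMM, filter on low counts, Benjamini-Hochberg adjustment over all genes of a fit), with calls at an adjusted p below 0.05 and over 1.5-fold. The difference between neuron classes used limma 3.58.1 with a prior count of 2 and an adjusted p below 0.05 alone. Alternatives were DESeq2 1.42.0, other filters and scalings, and leaving out each library. Scripts ran in R 4.3.3 and Python 3.11.15 and were tested on simulated data. P21 cells had been assigned to adult clusters by the authors by correlation, and classes follow the clusters. Libraries held 8375172 to 42892922 UMIs, which limits low genes such as Pcsk1. P-values measure the spread between libraries of pooled mice, which at P21 may share animals. All 10 members are counted in each comparison, with values for each by age in both neuron classes and by cocaine in excitatory neurons, for at most 4 called genes of each of 4 lists, the 3 genes most alike (1 is not reported here) and the 3 highest and 2 lowest clusters. Members and lists were chosen with earlier results of these data known.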

Additional observations from a re-analysis of the deposited data

Results flagged for a closer look

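Among 78 groups of saline P60 libraries looked at for a single library far from the rest, 7 held one. The limit used is Dixon's 95% critical value, which by its construction about 1 in 20 groups of normal values pass by chance, whereas these groups share libraries and some hold values of 0. In saline library 11 of 15 days of withdrawal, oligodendrocyte precursors were at 332 CPM for Chgb (nearest library 121 CPM), 208 CPM for Scg2 (33.6 CPM) and 23.1 CPM for Vgf (0 CPM), and astrocytes at 8.05 CPM for Pcsk1 (2.21 CPM). In saline library 2 of the maintenance phase, Chga was at 0 CPM in newly formed oligodendrocytes (nearest 24.4 CPM) and Pcsk1n at 105 CPM in excitatory neurons (nearest 76.7 CPM). In saline library 7 of 48 h, Vgf was at 5.52 CPM in mature oligodendrocytes (nearest 2.04 CPM).

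The age effect differed between excitatory and inhibitory neurons by the test of the difference itself for Chgb (0.65 on the log2 scale), Scg2 (0.60) and Chga (0.50), each more positive in excitatory neurons. The clusters that make up the inhibitory class took different shares at the 2 ages, which cannot be told apart from these differences. None of the 3 passed with a prior count of 0.5 (adjusted p of 0.051, 0.058 and 0.055 in limma), nor when any 1 of the P21 libraries was left out (for Chgb, adjusted p of 0.14, 0.22 and 0.29).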

How the results depend on the processing

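Called members kept their direction in all 482 values under alternatives, of which 408 kept their side of the threshold and 74 lost it. For each called test, 1 of these alternatives was the adjusted p alone, which keeps every call by construction. Alternatives in which a gene had no test are not counted. The same holds for the numbers of alternatives given with single calls above. By the adjusted p alone, 39 member tests were higher and 12 lower at P60 in excitatory clusters, and 8 differed in the neuron classes. At 48 h, neuron clusters gave 0 calls with DESeq2, 3 without the filter on low counts and 3 with only the 4 libraries of the period. At 15 days they gave 0 with DESeq2 and 0 with mitochondrial and ribosomal genes kept. Differences between periods in excitatory neurons as a class gave 1 call without the filter, and the difference between neuron classes 0 with a prior count of 0.5. The cause was not tested. Leaving out 1 library at a time gave 11 to 35 members higher and 4 to 6 lower in excitatory clusters, 0 to 1 in inhibitory clusters, 1 to 5 in the neuron classes, 2 to 5 in other classes and 0 to 2 for the difference between neuron classes. The counts of 35 and 5 in neurons came without P21 library 1, the 1 in neuron classes without P21 library 3, and the 2 in other classes without P21 library 2 or 3. For cocaine, leaving out 1 library gave 0 to 1 calls in clusters at maintenance (1 without cocaine library 4), 1 to 2 at 48 h (2 without library 2, 3, 9 or 10) and 0 to 2 at 15 days (0 without library 7, 10 or 11, 2 without library 8), and in classes 0 to 1 at 48 h (1 without cocaine library 6). No paired analysis was possible because the numbers in the labels do not pair libraries across groups.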

Other observations

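Activity and dissociation genes were also called by age outside neurons, in edgeR's quasi-likelihood test. In astrocytes Ier2 (-3.60), Nr4a1 (-2.07) and Dusp1 (-1.41) were lower at P60, and so was Sst (-2.73), a peptide precursor of interneurons. The inhibitory markers Gad1, Gad2 and Slc32a1 summed to 11.2 to 29.1 CPM in astrocytes at P21 and to 0 to 12.2 CPM in the saline P60 libraries, with none of the 3 at 0 over a group, and their part in the fall of Sst was not tested. In mature oligodendrocytes Ier2 (-3.10) and Junb (-2.27) were lower and Nr4a1 (1.00) higher, and in newly formed oligodendrocytes Fosb (2.12) and Fos (2.12) were higher. In the pooled 44 P60 cells of Inhib_6, too few per library to be ranked, Scg2 was at 1480 CPM (485 UMIs).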
